A study of Mus musculus with 2 samples.

Results

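The spots richest in adult globin RNA were set against the spots poorest in it, within one spatial RNA and chromatin experiment. For every spot the UMIs (distinct RNA molecules) of Hba-a1, Hba-a2, Hbb-bs and Hbb-bt were summed and divided by all gene UMIs of that spot, which gave the globin score. The 200 spots with the highest score are called globin-rich and the 200 with the lowest globin-poor, out of 1993 spots with RNA and chromatin counts; both groups were thus chosen by the measured globin UMIs. The tissue was labelled as brain of a mouse embryo at E18.5, late in gestation, on a C57BL/6 background, homozygous for the CTCF R567W mutation, which was made by CRISPR/Cas9 editing. All spots carried this genotype, so no effect of the mutation could be measured. SPARC-seq measures gene RNA and accessible chromatin at each barcode, here with 1 library per assay and no replicate. No positions of the spots were used, and a spot can hold several cells or parts of cells. Spots of 1 library are not replicates, so no test was made, and differences between the groups describe these libraries. Each interval is a 95% interval. Those of ratios, CPM and shares cover counting error only. Those of medians rest on the spread over the spots of these libraries, taken as independent draws.

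Haemoglobin is built from alpha and beta globin chains, each around a haem group. In the fetus these chains are made by red cells that mature mainly in the liver, where haem synthesis and globin transcription run together and the nucleus is finally lost. Red cells reach the brain only inside vessels, which are lined by endothelial cells, wrapped by mural cells (pericytes and smooth muscle) and seated on a basement membrane of collagen IV and laminins. Vessels are dense in the meninges and in the choroid plexus.

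The promoters of Hba-a1, Hbb-bs and Hbb-bt are shown, and that of Hba-a2 is compared with them. The chromatin counts below are read in windows that cover these sites but are centred on GENCODE starts. For Hba-a1 (chr11:32283511) and Hbb-bt (chr7:103813996) the GENCODE start lies inside the sequence shown, so part of that sequence lies after it. The 4 genes lie in the alpha cluster on chromosome 11 and the beta cluster on chromosome 7. The sequences are the 250 bases before the RefSeq start on GRCm38.p6, written along the gene, and capitals mark matches on either strand to the CCAAT box, the CACCC box bound by Kruppel-like factors, the GATA-type site GATAAG and the TATA-like letters ATATAA. The Hba-a1 window is chr11:32283422-32283671 on the plus strand, the Hbb-bs window is chr7:103827929-103828178 and the Hbb-bt window is chr7:103813924-103814173, both on the minus strand.
Hba-a1: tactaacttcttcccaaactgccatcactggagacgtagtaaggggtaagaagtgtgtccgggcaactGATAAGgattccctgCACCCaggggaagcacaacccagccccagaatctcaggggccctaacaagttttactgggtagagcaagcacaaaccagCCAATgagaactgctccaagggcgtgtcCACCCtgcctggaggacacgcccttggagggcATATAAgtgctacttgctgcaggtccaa
Hbb-bs: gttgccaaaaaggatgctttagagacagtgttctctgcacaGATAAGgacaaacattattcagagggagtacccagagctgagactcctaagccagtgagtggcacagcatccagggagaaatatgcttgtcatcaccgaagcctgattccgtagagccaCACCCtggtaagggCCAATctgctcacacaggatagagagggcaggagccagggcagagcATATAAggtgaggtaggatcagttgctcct
Hbb-bt: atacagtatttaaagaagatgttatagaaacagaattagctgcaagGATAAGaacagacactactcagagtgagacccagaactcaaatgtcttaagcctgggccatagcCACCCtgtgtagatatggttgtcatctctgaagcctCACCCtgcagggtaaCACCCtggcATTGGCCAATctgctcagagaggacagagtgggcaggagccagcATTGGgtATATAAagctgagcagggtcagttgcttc

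Each of these windows held at least 1 match to every one of the 4 motifs. Over all 32851 RefSeq promoter windows of this length, CCAAT was found in 33.8%, CACCC in 52.0%, GATAAG in 6.55% and ATATAA in 9.10%. The Hba-a2 window was identical to that of Hba-a1 over all 247 aligned bases, while Hbb-bs and Hbb-bt shared 179 of 241 aligned bases. The alpha transcripts also differed at only 1 of 538 aligned bases, so how alpha reads were split between Hba-a1 and Hba-a2 is uncertain. The beta transcripts were 93.1% identical.

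The score set the groups, so its values are a description. The highest spot had 269 score-gene UMIs of 3975, or 6.77%. The last spot inside the globin-rich group had 1.173% and the first outside it 1.170%. At the other end, the lowest spot had 0.102%, the last inside the globin-poor group 0.3219% and the first outside it 0.3223%. Neither limit fell in a gap, and the scores of all spots formed a single continuous slope. Every spot held at least 3 score-gene UMIs.

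**Figure D1:**
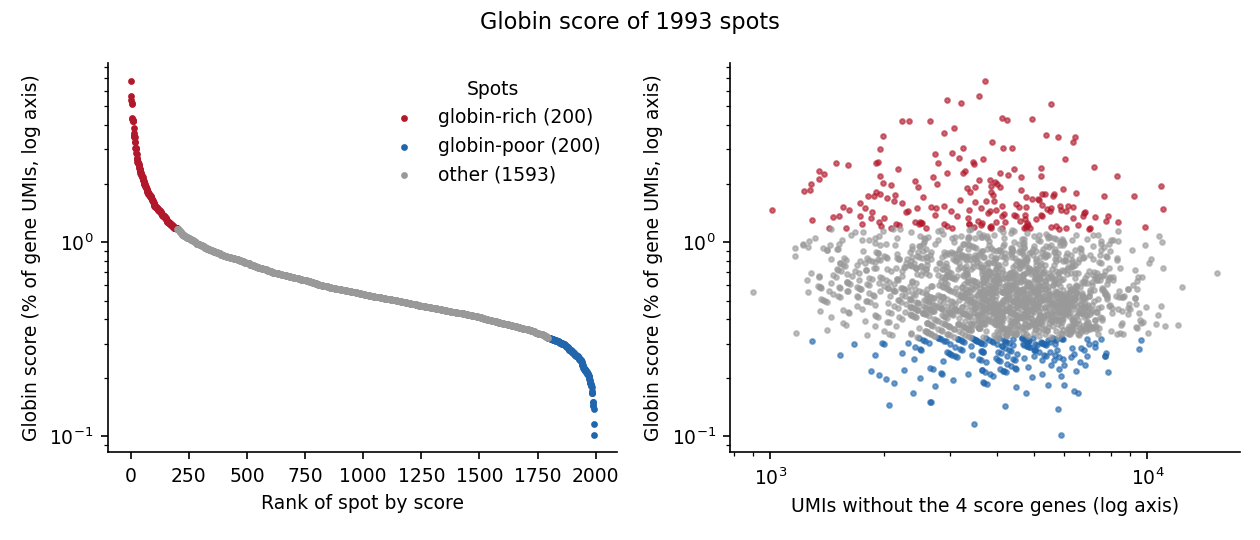
Left, the globin score (percent of gene UMIs, log axis) of each of the 1993 spots against its rank; right, the same score against the UMIs of the spot without the 4 score genes (both axes log). The 200 globin-rich spots (red) begin at 1.173% and the 200 globin-poor spots (blue) end at 0.3219%, with no gap to the other spots (grey), and spots of each group span low and high UMI counts.

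In the globin-rich spots the score genes took 15101 of 796837 UMIs, or 1.90% (1.87% to 1.93%, exact Clopper-Pearson interval). They took 0.266% in the globin-poor spots (0.255% to 0.277%) and 0.582% in the 1593 other spots. Hba-a1, an alpha-globin gene, had between 4 and 143 UMIs in a globin-rich spot with a median of 25.5, and between 0 and 11 with a median of 4 in a globin-poor spot. Its copy Hba-a2 had 3 to 99 UMIs (median 19.5) against 0 to 11 (median 3). For each alpha gene taken alone the ranges of the groups overlapped. Hbb-bs, the major adult beta chain gene of this strain, had 1 to 54 UMIs (median 14) against 0 to 12 (median 3). Hbb-bt, the second adult beta gene, had 0 to 23 (median 4) against 0 to 5 (median 1).

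The alpha share of the score-gene UMIs was higher in the globin-rich than in the globin-poor spots. It was 72.6% in the globin-rich spots (71.9% to 73.3%, Clopper-Pearson interval), 68.1% in the other spots (67.7% to 68.6%) and 65.2% in the globin-poor spots (63.2% to 67.1%). Per spot, among spots with at least 10 score-gene UMIs, the share ran from 43.8% to 96% with a median of 72.6% in 200 globin-rich spots, and from 26.3% to 100% with a median of 66.7% in 129 globin-poor spots. The ranges overlapped widely, and the intervals of the medians were 71.4% to 73.3% and 63.6% to 68.8%. Those intervals take spots of the same library as independent draws, so no difference between the groups is read from them. The limit of 10 score-gene UMIs left out 71 globin-poor and 0 globin-rich spots. By decile of the score, the share was 65.2% in the lowest decile, 66.6% and 64.9% in deciles 2 and 3, 68.3% and 67.7% in deciles 5 and 6, and 72.6% in the highest, so it did not rise at every step. These shares are of UMIs, not corrected for transcript length, and come from the UMIs that made the score, so they describe the groups and are no test. Within the beta genes, Hbb-bs held 76.5% of UMIs in the globin-rich spots (75.2% to 77.8%) and 78.2% in the globin-poor spots (75.1% to 81.0%), and the intervals overlapped.

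When spots were ranked by the alpha genes alone, the beta genes entered the rule only through the total UMIs that it divides by. They had 5067 CPM in the 200 highest spots and 1329 CPM in the 200 lowest. CPM here is UMIs per 1000000 gene UMIs after the 4 score genes were taken out of the total. The ratio was 3.81 (3.57 to 4.07, conditional binomial interval). Ranking by the beta genes alone gave 12981 against 2878 CPM of alpha RNA, a ratio of 4.51 (4.31 to 4.72).

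**Figure D2:**
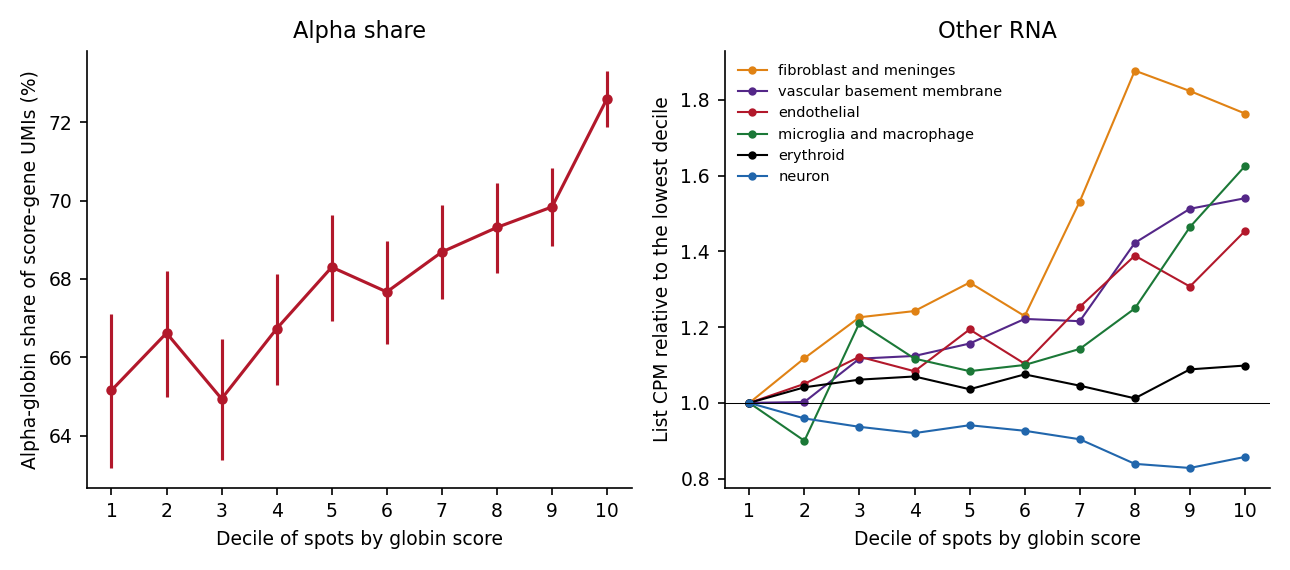
Left, the alpha-globin share of score-gene UMIs (percent, with exact 95% intervals) and right, the CPM of 6 gene lists relative to the lowest decile, both against the decile of spots by globin score (1 lowest, 10 highest). The alpha share goes from 65.2% in the lowest to 72.6% in the highest decile with dips at deciles 3 and 6, the endothelial, basement membrane, macrophage and fibroblast lists lie above their lowest decile at the top end, the neuron list lies below it, and the erythroid list stays near it.

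The embryonic and minor globins were nearly absent from the globin-rich spots. Hba-x, the embryonic alpha-like zeta globin, had 4 UMIs in the globin-rich and 1 in the globin-poor spots. Hbb-y, the embryonic epsilon-type beta globin, had 2 and 0. Hbq1a and Hbq1b (theta globins), Hbb-bh1 and Hbb-bh2 had 0 UMIs in both groups, which allows up to 3 UMIs in each group. Over all spots these 6 genes reached at most 16 UMIs, against 22381 for Hba-a1.

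Other genes of red cells had a ratio close to 1 in sum. The erythroid list, which holds red cell membrane, enzyme and transcription factor genes without globins, had 823 UMIs in the globin-rich and 832 in the globin-poor spots, or 1053 CPM (982 to 1127, exact Poisson interval) against 959 CPM (895 to 1026). The ratio was 1.10 (0.996 to 1.21), beside 7.25 for the score genes, which chose the spots. It ranged from 1.06 to 1.20 over the alternatives, and its interval left out 1 in 7 of the 10 that gave one. Per spot the list had a median of 1017 CPM (0 to 3629) in globin-rich and 901 CPM (0 to 2584) in globin-poor spots, with nearly full overlap. Of its 39 genes in the matrix, 13 had the 50 UMIs over both groups that were required for a count of called genes. A gene was called when its ratio was at least 1.5-fold in either direction and its interval left out 1. Over all 6794 genes with 50 UMIs, 3.53% were called higher and 2.05% lower in the globin-rich spots, and the median ratio was 0.987. Of the 13 erythroid genes, 2 were called higher and 2 lower, and their median ratio was 1.02.

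The genes called higher were Alas2 and Bpgm. Alas2, the red cell enzyme of the first step of haem synthesis, had 41 against 24 UMIs, a ratio of 1.90 (1.12 to 3.28). Its interval included 1 within second barcode segments, described below (1.65, 0.975 to 2.83), with the score taken from the alpha genes (1.46, 0.865 to 2.48) and with 100 spots per group (1.93, 0.896 to 4.32). Bpgm, which makes the 2,3-bisphosphoglycerate that lowers the oxygen affinity of haemoglobin, had 32 against 18 UMIs, a ratio of 1.97 (1.07 to 3.73). Tmcc2 (0.66, 0.46 to 0.93) and the membrane skeleton gene Dmtn (0.61, 0.37 to 0.998) were called lower. The most abundant members of the list are also used by cells other than red cells. Cd24a, a surface glycoprotein gene that young neurons express too, had 116 against 126 UMIs, and Epb41, the gene of membrane skeleton protein 4.1R, had 84 against 82.

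Members below 50 UMIs included the genes most restricted to red cells. Slc4a1, the band 3 anion exchanger of the red cell membrane, had 14 UMIs in the globin-rich and 2 in the globin-poor spots, a ratio of 7.77 (1.78 to 70.4). It was at 3.76 (0.968 to 21.3) within second barcode segments and at 3.84 (0.730 to 37.8) without the spots high for other tissues, both described below and both with intervals that included 1. Slc25a37, the mitoferrin that brings iron into red cell mitochondria, had the same counts of 14 and 2. Klf1, an erythroid transcription factor gene, had 0 and 2 UMIs. Gata1, the main erythroid GATA factor, had 0 UMIs in both groups and 5 over all spots, and 5 members of the list had none in either group. The 26 members under the minimum summed to 116 UMIs against 63 (2.04, 1.49 to 2.82).

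Haem synthesis as a whole had 261 UMIs in the globin-rich and 260 in the globin-poor spots, a ratio of 1.11 (0.935 to 1.33). Of its 3 genes with enough UMIs, Alas2 was called. Fech, the ferrochelatase that inserts iron into haem, had 26 against 14 UMIs (2.06, 1.04 to 4.27) but lay below the minimum, as did Alad, the enzyme of the second step, at 11 against 27 UMIs (0.45, 0.20 to 0.94). Of the 11 members below it, 8 had a higher CPM in the globin-rich spots and 3 a lower one. Tmem14c, a porphyrin carrier of mitochondria, had 30 against 43 UMIs, a ratio of 0.77 (0.47 to 1.26). Iron and haem handling had a ratio of 1.13 (1.07 to 1.19), with none of 4 genes called. Ftl1, the ferritin light chain, was at 1.03 (0.95 to 1.11) and Fth1, the heavy chain, at 1.23 (1.13 to 1.35).

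Nprl3, which neighbours the alpha-globin genes on chromosome 11 and whose introns hold alpha-globin enhancers, was looked up after the values were seen. It had 40 against 17 UMIs, a ratio of 2.61 (1.45 to 4.91), and under the 11 alternatives that gave RNA ratios it ranged from 1.80 to 2.94. Its neighbour Mpg had 15 against 19.

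Vessel wall RNA was higher in the globin-rich spots in every list of it. The endothelial list had 880 CPM (816 to 948) against 607 CPM (557 to 661), a ratio of 1.45 (1.29 to 1.63). Of its 34 genes 8 had enough UMIs, all 8 had a ratio above 1, and 3 were called higher. Of the 26 under the minimum, 19 had a higher and 7 a lower CPM in the globin-rich spots, and in sum they had 301 against 245 UMIs (1.36, 1.15 to 1.62). Cldn5, the tight junction claudin of brain endothelium, had 85 against 50 UMIs (1.89, 1.32 to 2.73). Itm2a had 52 against 24 (2.41, 1.46 to 4.08), and Kdr, the main VEGF receptor, had 39 against 21 (2.06, 1.18 to 3.69). Within second barcode segments, described below, Cldn5 was at 1.67 (1.13 to 2.48), while the intervals of Itm2a (1.53, 0.958 to 2.45) and Kdr (1.53, 0.889 to 2.68) included 1. That of Kdr also did with 100 spots per group (1.58, 0.676 to 3.79) and with the score from the beta genes (1.61, 0.907 to 2.94). Flt1, another VEGF receptor, had 69 against 61 UMIs and was not called (1.26, 0.88 to 1.80), nor was the junction gene Pecam1 at 31 against 32 (1.08, 0.63 to 1.82). Under the minimum, and named after their values were seen, the endothelial phosphatase gene Ptprb had 17 against 31 UMIs (0.61, 0.32 to 1.13) and Mfsd2a, a lipid transporter gene of brain endothelium, 7 against 11, while Tek, the angiopoietin receptor gene, had 24 against 10 (2.66, 1.23 to 6.24). Per spot the list ran from 0 to 3411 CPM with a median of 787 in globin-rich, and from 0 to 2228 with a median of 568 in globin-poor spots. The groups overlapped over most of this range, and in spots that hold several cells fewer cells of a type cannot be told apart from less RNA per cell. The list of arterial and venous genes had a ratio of 1.19 (1.01 to 1.40) with none of 3 genes called, and Nr2f2, a regulator of vein identity, was at 1.38 (0.93 to 2.06).

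Mural RNA had 930 CPM (864 to 1000.1) against 649 CPM (596 to 705), a ratio of 1.43 (1.28 to 1.60). All 9 genes with enough UMIs lay above 1 and 2 were called. Vtn, the vitronectin gene that marks brain pericytes, had 73 against 43 UMIs (1.88, 1.28 to 2.81), and Pdgfrb, the PDGF receptor that pericytes need, had 33 against 20 (1.83, 1.02 to 3.37). Pdgfrb was at 0.982 (0.564 to 1.70) within second barcode segments, and its interval also included 1 with 100 and with 300 spots per group, with the score from the beta genes and without the second segment that held the most globin-rich spots. Without that segment Vtn was at 1.36 (0.894 to 2.08). Rgs5, another pericyte gene, had 48 against 42 UMIs and was not called (1.27, 0.82 to 1.97). Des, which striated muscle shares, gave 247 of the 727 mural UMIs in the globin-rich spots, and without it the ratio was 1.41 (1.23 to 1.62). Without the spots high for other tissues, described below, the whole mural list was at 1.08 (0.960 to 1.21), an interval that included 1.

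The vascular basement membrane list had 1951 CPM (1854 to 2051) against 1265 CPM (1191 to 1342), a ratio of 1.54 (1.43 to 1.67), and 4 of 9 genes were called higher. Col4a1 and Col4a2, the collagen IV chains of vessel walls, had 366 against 228 UMIs (1.78, 1.51 to 2.11) and 122 against 90 (1.505, 1.14 to 1.999). Lamb1, a laminin chain, had 48 against 28 (1.90, 1.17 to 3.15). Sparc, a collagen-binding matrix protein gene that bone also uses, had 604 against 397 (1.69, 1.49 to 1.92), and the list without it stood at 1.46 (1.32 to 1.61). Of the 200 spots with the highest basement membrane share, 45 were globin-rich and 3 globin-poor, where each group made up 10.04% of all spots. The corresponding counts were 37 and 15 for the endothelial list, 35 and 12 for the mural list, and 27 and 22 for the arterial and venous list, where the groups were close. Lists whose RNA ratios lay near 1 could be uneven too, as with haem synthesis (30 and 16) and glycolysis and hypoxia (27 and 11). The erythroid list had 21 and 17. The part of spot depth in these counts was not tested.

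**Figure D3:**
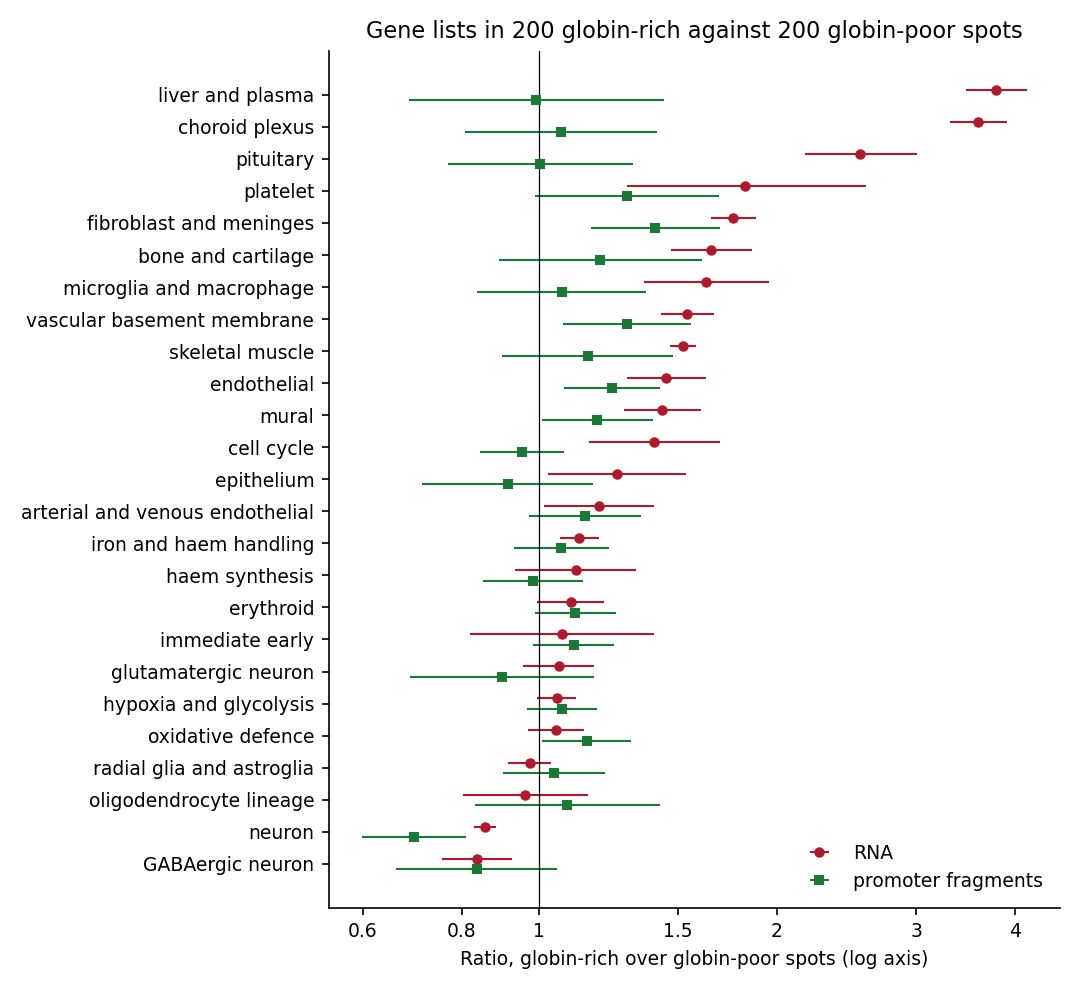
Ratio of globin-rich over globin-poor spots (log axis) for each gene list with at least 100 UMIs in both groups together, as RNA (red circles, CPM without the score genes) and promoter fragments (green squares, per 1000000 promoter fragments), with conditional binomial 95% intervals. Endothelial RNA lies at 1.45 and basement membrane RNA at 1.54 while the erythroid list lies at 1.10, and the neuron list lies below 1 in both readouts.

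Blood cells other than red cells gave few UMIs. Pf4, the platelet factor 4 gene, had 50 against 23 UMIs, a ratio of 2.41 (1.45 to 4.14), and it was the single platelet gene with enough UMIs. The platelet list had 92 against 56 UMIs (1.82, 1.29 to 2.59). The list without Pf4 had 42 against 33 UMIs (1.41, 0.874 to 2.30). Of these 13 other members 5 had a higher CPM in the globin-rich spots, 2 a lower one and 6 had no UMI in either group. Itga2b, integrin alpha IIb, had 13 against 15 UMIs and the thrombospondin gene Thbs1 9 against 3, and Ppbp had 0 in all spots. Neutrophil and mast cell genes had 30 against 24 UMIs, a ratio of 1.39 (0.784 to 2.48).

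Microglia and macrophage RNA had 299 against 204 UMIs, a ratio of 1.63 (1.36 to 1.95), with no gene of 3 called. C1qb, a complement gene of these cells, had 37 against 27 UMIs (1.52, 0.90 to 2.60), and Tyrobp, an immune signalling adaptor gene, had 33 against 23 (1.59, 0.91 to 2.84). Of the 19 members under the minimum of 50 UMIs, 15 had a higher and 4 a lower CPM in the globin-rich spots, and the 6 whose intervals left out 1 were all higher. Among them, named after their values were seen, were the complement genes C1qa, at 22 against 9 UMIs (2.71, 1.20 to 6.70), and C1qc, at 13 against 2, and Mrc1, the mannose receptor gene of macrophages, at 19 against 8 (2.64, 1.10 to 6.96). Cx3cr1, the microglial fractalkine receptor gene, was on the other side with 8 against 17 (0.52, 0.20 to 1.28), as was Trem2, a microglial lipid receptor gene, with 1 against 7. Stab1, a scavenger receptor gene of macrophages and sinus endothelium, was among the 10 genes of the matrix with the highest lower bound of the ratio, at 66 against 26 UMIs (2.82, 1.77 to 4.62). Maf, a transcription factor gene that macrophages use among other cells, was also among them, at 52 against 21 (2.75, 1.63 to 4.80).

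RNA of meninges and connective tissue was also higher in the globin-rich spots. The fibroblast and meninges list had 2988 CPM (2868 to 3112) against 1697 CPM (1612 to 1786), a ratio of 1.76 (1.65 to 1.88), and 9 of 11 genes were called higher. Col1a1, the fibrillar collagen I gene, had 941 against 523 UMIs (1.997, 1.79 to 2.23) and 38 UMIs in its highest spot, and the list without it was at 1.63 (1.5001 to 1.77). Slc6a13, a GABA transporter gene of meningeal fibroblasts, had 51 against 19 (2.98, 1.73 to 5.34). Igf2, a growth factor gene of fetal meninges, was at 1.52 (1.33 to 1.75). Ptgds, the prostaglandin D synthase that meninges secrete and a gene of no list here, had 737 against 227 UMIs (3.604, 3.10 to 4.20). In a globin-rich spot Ptgds had 0 to 46 UMIs with a median of 2, in a globin-poor spot 0 to 6 with a median of 1. Aebp1, a collagen-binding matrix gene, and Fxyd1, a sodium pump regulator gene, completed the non-endocrine genes with the highest lower bounds, at 2.64 (1.69 to 4.23) and 2.50 (1.63 to 3.92). Within second barcode segments, described below, Col1a1 was at 1.13 (1.02 to 1.26), Ptgds at 1.79 (1.54 to 2.09) and Slc6a13 at 1.46 (0.888 to 2.41), the last with an interval that included 1. Without the spots high for other tissues, also described below, Aebp1 was at 1.49 (0.91 to 2.44) and Fxyd1 at 1.53 (0.99 to 2.38), both with intervals that included 1.

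Some of the largest differences rested on few spots. Ttr, the transthyretin gene that choroid plexus makes in large amounts, had 2199 against 629 UMIs, a ratio of 3.88 (3.55 to 4.25). Its median was 3 UMIs per spot in both groups, its highest spot held 263 UMIs in the globin-rich and 28 in the globin-poor group, and 10 spots carried 63.2% of its globin-rich UMIs. The choroid plexus list was at 3.59 (3.31 to 3.91), and without Ttr at 1.83 (1.43 to 2.36). Ttr is a liver gene too. The other 12 genes of the liver and plasma list, all under the minimum, had 21 against 23 UMIs in sum, with Alb (albumin) at 2 and 0 and Afp (alpha-fetoprotein) at 0 and 1. Gh, the growth hormone gene of the anterior pituitary, had 171 against 27 UMIs (7.03, 4.67 to 10.98), of which 10 globin-rich spots carried 76.6%. Pomc, the pituitary ACTH precursor gene, had 199 against 51 (4.33, 3.17 to 6.01), with 58.8% in 10 spots. Both medians were 0 UMIs per spot, and the pituitary list without these genes had a ratio of 1.01 (0.790 to 1.30). Within second barcode segments, described below, Gh was at 0.987 (0.706 to 1.38) and Pomc at 1.09 (0.750 to 1.59). Without the second segment that held the most globin-rich spots, Pomc was at 1.87 (1.31 to 2.69).

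The label of brain tissue was checked against marker lists. All 16 neuron genes passed the 50 UMIs, with 8879 CPM in the globin-rich and 10381 CPM in the globin-poor spots. Skeletal muscle genes were present in both groups as well, at 8021 CPM (7823 to 8222) and 5266 CPM (5114 to 5421), a ratio of 1.52 (1.47 to 1.58), with 7 of 15 genes called higher. Myh8, the perinatal myosin heavy chain, had 938 against 626 UMIs (1.66, 1.502 to 1.84). The median spot had 5789 CPM of muscle genes in the globin-rich and 5014 CPM in the globin-poor group. Of the globin-rich spots 111 (55.5%), and of the globin-poor spots 36 (18%), were among the 200 highest for muscle, bone and cartilage, pituitary, choroid plexus or epithelium, against 36.8% of all spots. These ranks are by share of UMIs, and the part of spot depth in them was not tested.

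Neuronal RNA was lower in the globin-rich spots by a small amount. The neuron list had a ratio of 0.855 (0.829 to 0.883), 15 of 16 genes lay below 1, and none passed the fold for a call. Tubb3, the neuronal beta tubulin gene, was at 0.71 (0.61 to 0.81) and Gap43, a growth cone gene, at 0.73 (0.64 to 0.83), while Celf4 was at 0.96 (0.88 to 1.04). GABAergic genes had a ratio of 0.836 (0.755 to 0.925). The ratio of this list was 1.004 (0.904 to 1.11) within second barcode segments and 0.960 (0.872 to 1.06) without the spots high for other tissues. Slc32a1, the vesicular GABA transporter gene, had 26 against 63 UMIs and was called lower (0.46, 0.28 to 0.73), while Sst (somatostatin) was at 1.01 (0.70 to 1.45). Glutamatergic genes were at 1.06 (0.957 to 1.17). Among the 10 genes with the lowest upper bound, Cdk5r2, a neuronal activator of Cdk5, had 35 against 90 UMIs (0.43, 0.28 to 0.64), Kcnip3, a potassium channel partner gene, had 33 against 82 (0.45, 0.29 to 0.68), and Pcdh17, a nervous system adhesion gene, had 237 against 442 (0.60, 0.51 to 0.70). Diras2, B4galt6, Ezh1, Lpin1, Kndc1 and Slc32a1 were also among them, with ratios between 0.39 and 0.53. Within second barcode segments the intervals of B4galt6 (0.77, 0.56 to 1.04), Ezh1 (0.66, 0.36 to 1.16), Lpin1 (0.796, 0.45 to 1.38), Slc32a1 (0.785, 0.48 to 1.26) and Kcnip3 (0.73, 0.48 to 1.09) included 1, and Pcdh17 at 0.74 (0.63 to 0.88) no longer passed the fold. Cdk5r2 (0.64, 0.43 to 0.93), Diras2 (0.45, 0.25 to 0.77) and Kndc1 (0.64, 0.44 to 0.92) still passed both limits there. Without the spots high for other tissues, described below, Diras2 was at 0.73 (0.44 to 1.19). Radial glia and astroglia genes were at 0.975 (0.916 to 1.04) with 2 of 14 genes called higher. These were the intermediate filament genes Vim (1.58, 1.24 to 2.02) and Nes (1.65, 1.22 to 2.25), which vessel and connective tissue cells also use.

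The glycolysis and hypoxia list was at 1.05 (0.997 to 1.11) with none of 10 genes called, and immediate early genes were at 1.07 (0.821 to 1.40). Oxidative defence genes were at 1.05 (0.970 to 1.14) with none of 7 called. Cell cycle genes were at 1.40 (1.16 to 1.70), of which Top2a, the replication-linked topoisomerase gene, was called at 35 against 20 UMIs (1.94, 1.09 to 3.55) and Mki67 was not (1.18, 0.77 to 1.82).

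The globin-rich spots were somewhat shallower in RNA. Without the score genes they had 1013 to 11031 UMIs with a median of 3645 (3355 to 3933, order-statistic interval), against 1289 to 9604 with a median of 4189 (3894 to 4458) in the globin-poor spots. The total is also the denominator of the score, so this difference is a description. In equal draws of 900 UMIs a globin-rich spot was expected to show a median of 742.2 genes and a globin-poor spot 742.5. Mitochondrial genes took a median of 0.744% (0.712% to 0.783%) against 0.678% (0.658% to 0.706%) of UMIs, and ribosomal protein genes 2.55% (2.50% to 2.63%) against 2.23% (2.19% to 2.29%).

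In the chromatin library, which the rule did not use, the medians of the fragment number were close and the median number of cut sites in peaks was lower in the globin-rich spots. Globin-rich spots had 5800 to 87572 fragments with a median of 20050 (18643 to 21273), and globin-poor spots 8430 to 46769 with a median of 20771.5 (20129 to 22348). The lower quartiles were 13591 and 17392 fragments. Cut sites in peaks numbered 6779 (6027 to 7250) per median spot against 7456 (7126 to 8023). Fragments per RNA UMI were 5.30 and 5.24. The fragments of globin-rich spots were shorter: a median of 49.1% (48.1% to 49.9%) were shorter than the DNA wound around 1 nucleosome, against 43.4% (43.1% to 43.8%) in the globin-poor spots. Spots ran from 40.2% to 60.5% in the one group and from 37.3% to 55.4% in the other. Across all 1993 spots, which share their libraries, the Spearman correlation of this share with the score was 0.41, that of the fragment number was -0.03 and that of the UMIs was -0.13. Enrichment of insertions at transcription start sites (density within 50 bp over that 1900 to 2000 bp away) was 9.40 in the globin-rich and 10.1 in the globin-poor spots. The highest and lowest decile within each second barcode segment, described below, had 46.8% and 44.4% short fragments. Without the spots high for other tissues, also described below, the medians were 46.0% (45.6% to 46.8%) in globin-rich and 43.4% (43.2% to 43.8%) in globin-poor spots.

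**Figure D4:**
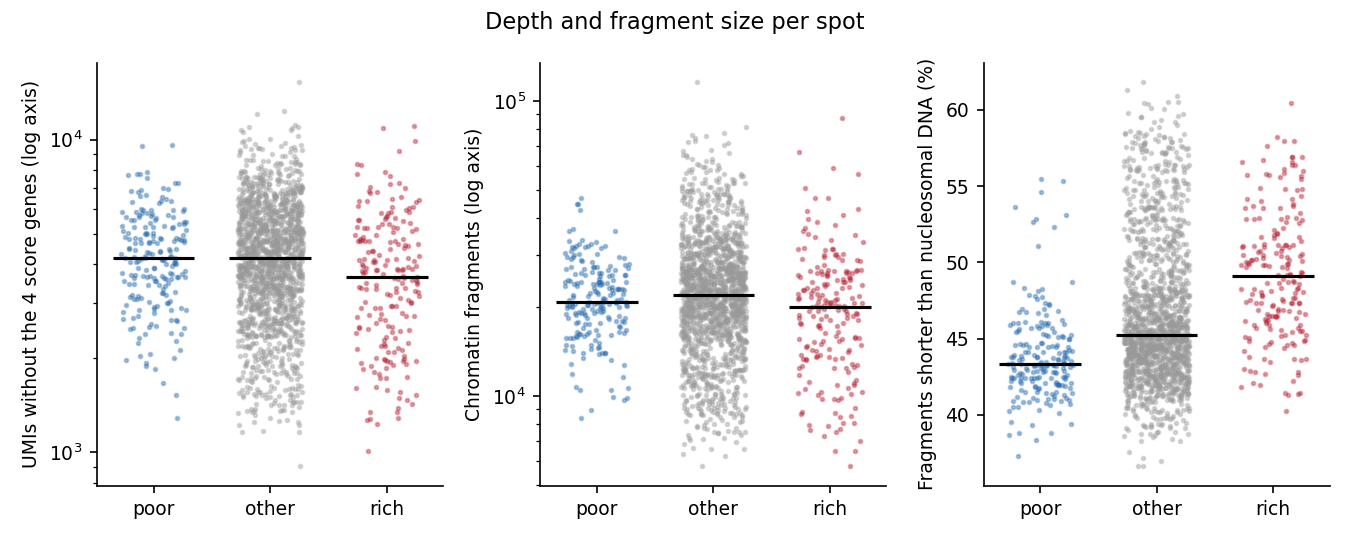
Each point is 1 spot of the globin-poor (blue), other (grey) or globin-rich (red) group and each bar is a median; the panels show UMIs without the score genes (log axis), chromatin fragments (log axis) and the percent of fragments shorter than nucleosomal DNA. The depth of the groups overlaps, with medians of 3645 and 4189 UMIs and of 20050 and 20771.5 fragments in the rich and poor groups, while the short fragments have medians of 49.1% and 43.4%.

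The globin genes showed almost no open chromatin, rich spots included. Windows of 1 kb on each side of the transcription start held 23 fragments for Hba-a1, 18 for Hba-a2, 24 for Hbb-bs and 20 for Hbb-bt over all 1993 spots, where the median of 21702 coding genes was 160. That placed them at percentiles 11.9, 9.31, 12.4 and 10.4 of coding promoters. In the globin-rich spots the windows held 3, 0, 3 and 1 fragments, and in the globin-poor spots 1, 2, 4 and 1, in the same order. The sums of 7 and 8 gave a ratio of 0.944 (0.291 to 2.98), beside a ratio of 7.25 in RNA. No peak of the deposited list lay at these 4 starts. Because the alpha promoter windows are identical over their aligned bases, reads inside them cannot be told apart by copy. The beta transcripts, which the windows run into, are also nearly identical, and the part of such shared sequence in these counts was not tested. The alpha enhancer region in Nprl3 and the rest of both clusters, searched to 60 kb, held 17 peaks, and every one had an interval that included 1. Most of these peaks lay below 50 cut sites, such as one near Hbb-bh1 with 10 against 3 (0.51 to 61.7). Those with enough cut sites had Snrnp25, Rhbdf1 or Mpg as the nearest start. The counts are thus too low to decide whether the globin genes or their enhancers differed. Alas2 had 6 against 1 promoter fragments, Slc4a1 9 against 7 and Nprl3 13 against 18.

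Promoter fragments of the vessel lists had ratios above 1 in the main comparison, smaller than those of their RNA. The background was 7494 promoters with at least 50 fragments, of which 3.11% were called higher and 3.7% lower by the same rule. The endothelial promoters held 438 against 382 fragments, a ratio of 1.24 (1.08 to 1.42). The mural ones were at 1.19 (1.01 to 1.39) and the basement membrane ones at 1.29 (1.08 to 1.56). Arterial and venous promoters were at 1.14 (0.973 to 1.35), an interval that included 1. Oxidative defence promoters, of no vessel list, were at 1.15 (1.01 to 1.31). Some lists higher in RNA had promoter intervals that included 1: macrophage (1.07, 0.837 to 1.37), pituitary (1.01, 0.768 to 1.31) and choroid plexus (1.07, 0.808 to 1.41). Of 2 endothelial promoters with enough fragments, that of Slc16a1, a monocarboxylate transporter of brain endothelium, was called higher at 41 against 20 (2.21, 1.27 to 3.98). In RNA, Slc16a1 had 9 against 7 UMIs. The other promoter, that of Slc2a1, held 36 against 38 fragments (1.02, 0.63 to 1.66). Under the minimum, and named after their values were seen, Esam had 10 against 24 (0.45, 0.19 to 0.97) and Apold1 21 against 10 (2.26, 1.02 to 5.39). No mural promoter reached 50 fragments, and the interval of the mural promoter ratio included 1 in 8 of 12 alternatives, with 1.05 (0.894 to 1.24) within second segments and 1.14 (0.969 to 1.34) per 1000000 fragments of any kind. The interval of the endothelial promoter ratio included 1 in 2 of 12. Fibroblast and meninges promoters were at 1.40 (1.17 to 1.69), with intervals that included 1 within second segments (1.03, 0.856 to 1.24) and with 100 spots per group (1.27, 0.978 to 1.66), and erythroid promoters at 1.11 (0.989 to 1.25). Single genes high in RNA did not all follow in promoter fragments, all with few fragments. Col1a1 had 20 against 26 and Ptgds 10 against 14, while Slc6a13 had 9 against 1 and Stab1 18 against 12. Neuron promoters held 287 against 444 fragments, a ratio of 0.697 (0.599 to 0.810), and 3 of 4 with enough fragments were called lower, among them Tubb3 (0.58, 0.37 to 0.90) and Syt1, a synaptic vesicle gene, at 37 against 61 fragments. Of 13061 peaks with at least 50 cut sites, 398 (3.05%) were higher and 485 (3.71%) lower in the globin-rich spots. These counts depended on the settings. They were 1328 and 1190 with 300 spots per group, 93 and 143 with 100, and 1134 and 1088 with a minimum of 20 cut sites.

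The groups were not evenly spread over the barcodes, which are made of 2 segments of 8 bases. Globin-rich spots fell in 41 of the 48 second segments, up to 19 in 1 segment, and 6 segments carried 37.0% of them. Globin-poor spots fell in 36, up to 24 in 1, and 6 carried 44.5%. The 6 second segments with most spots of any kind carried 15.1% of all spots. The 4 segments with most globin-rich spots, which held 19, 16, 12 and 11, held no globin-poor spot. What a second segment stands for in the tissue was not used here, so place and score cannot be told apart in the main comparison. Of the first segments, 6 carried 27.0% of globin-rich and 6 carried 23.5% of globin-poor spots, against 13.7% of all spots. No alternative chose spots within first segments, so place along them stayed uncontrolled.

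Choosing the highest and lowest decile within each second segment gave 178 spots a side, 118 of them shared with the 200 globin-rich spots. Endothelial RNA was then at 1.32 (1.17 to 1.48), mural RNA at 1.29 (1.16 to 1.45), basement membrane RNA at 1.27 (1.18 to 1.38) and erythroid RNA at 1.16 (1.05 to 1.27), an interval that left out 1. Fibroblast and meninges RNA was at 1.17 (1.09 to 1.25) and neuron RNA at 0.935 (0.906 to 0.966). Choroid plexus RNA, at 1.92 (1.77 to 2.08), stayed above 1. Pituitary RNA was at 0.927 (0.780 to 1.10) and GABAergic RNA at 1.004 (0.904 to 1.11), and the endothelial promoter ratio at 1.04 (0.904 to 1.20) no longer left out 1. The alpha share was 72.8% (72.0% to 73.6%) and 66.6% (64.8% to 68.4%). This share comes from the UMIs that chose the spots, within segments as before, and is a description.

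Leaving out all spots among the 200 highest for muscle, bone and cartilage, pituitary, choroid plexus or epithelium, a choice made after the data were seen, kept 1259 spots. The new 200 highest shared 89 spots with the globin-rich group. Endothelial RNA was at 1.30 (1.16 to 1.46), basement membrane RNA at 1.26 (1.16 to 1.37) and macrophage RNA at 1.41 (1.18 to 1.69). Mural RNA was at 1.08 (0.960 to 1.21), so its interval included 1, and erythroid RNA was at 1.13 (1.03 to 1.25). The mural list shares Des with the muscle list, the basement membrane list shares Sparc with the bone and cartilage list and Ttr is in the choroid plexus list, so these values were in part set by how the spots were left out. Fibroblast and meninges RNA was at 1.31 (1.22 to 1.40), Ttr at 1.17 (1.04 to 1.32) and neuron RNA at 0.910 (0.884 to 0.938). Gh was at 1.10 (0.626 to 1.92) and Pomc at 1.01 (0.631 to 1.63), after the spots highest for the pituitary list that holds them were left out. Alas2 was at 2.19 (1.34 to 3.66), Cldn5 at 1.497 (1.03 to 2.18), Itm2a at 1.42 (0.804 to 2.52), Kdr at 1.58 (0.922 to 2.74) and Pf4 at 2.24 (1.32 to 3.92). The part of other tissues in the spots in the main ratios was not tested beyond these values.

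**Figure D5:**
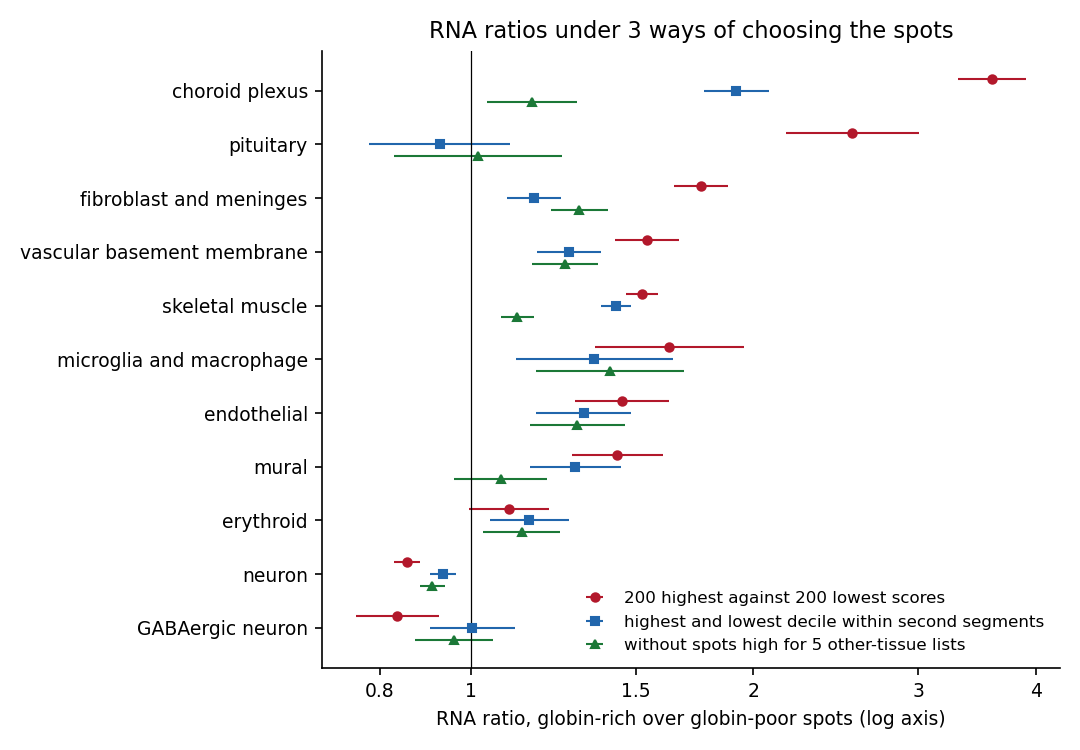
RNA ratio of globin-rich over globin-poor spots (log axis, conditional binomial 95% intervals) for 11 gene lists under 3 choices of spots: all spots (red circles), deciles within second barcode segments (blue squares) and without spots high for other tissues (green triangles). Endothelial RNA stays above 1 in all, at 1.45, 1.32 and 1.30, and pituitary RNA is at 2.55, 0.927 and 1.02, where the last choice removed the 200 spots highest in pituitary RNA itself and no spot for its endothelial RNA.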

How the data were processed

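Both libraries were run by the authors through cellranger-arc 2.0.1 with its mm10 (GRCm38) reference, according to the file headers. The submitters' processing notes also name Seurat 4.0. The deposited matrix gives, for 1993 barcodes shared by both libraries, raw counts of UMIs in 32285 genes and of cut sites in 91223 peaks. The deposited fragment list, with duplicates collapsed, holds 52942843 fragments of 2500 barcodes, 47109447 of them in matrix barcodes. The matrix barcodes had 8726497 UMIs. How they were selected, and any read filter, are not given in the sources used here. That barcodes are spots was inferred from the barcodes.

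Barcodes were ranked by the globin score, with no further filter. The members and the 28 gene lists were chosen with earlier results of these data known. Ratios are group CPM without the 4 score genes, with conditional binomial intervals. Exact Poisson and Clopper-Pearson intervals were used for counts and shares. In all of these, UMIs and fragments are treated as independent, so they cover counting error only. Medians have order-statistic intervals, which treat the spots of a group as independent draws and say nothing about other libraries. Peak intervals rest on cut sites divided by 2, since they come in pairs. Transcription start sites came from GENCODE M21 for 32235 genes. Named genes were the score genes, other globins, the most abundant genes of each list (up to 6 of the endothelial, mural, erythroid and haem synthesis lists, 3 of the others) and the 10 with the highest lower or lowest upper bound of the ratio among genes with 50 UMIs; not all of them are reported, and other genes named were the called members of a list or members picked once their values were known. The step for gene ratios was checked against simulated counts. These were independent Poisson counts, which the intervals also assume, so the check does not cover genes whose UMIs gather in few spots. Alternatives changed the number, depth, barcode segments or score of the spots, the totals, the minimums, the fold and the promoter window. Python 3.11.15, numpy 2.4.6, pandas 2.3.3, scipy 1.17.1 and matplotlib 3.10.9 were used.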

Additional observations from a re-analysis of the deposited data

How the results depend on the processing

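Of 615 values recomputed over 19 alternatives, 499 lay within the interval of the main value or, for counts, within 1.5 times it. A further 111 moved more, and 5 ratios whose main interval left out 1 changed direction. Another order of ties in the score left every value as it was and is not counted. With 100 spots per group the endothelial ratio was 1.74, the mural ratio 1.61 and the genes higher 116. Within second segments the genes higher were 118, the median UMIs 4023 in globin-rich and 4487 in globin-poor spots, the globin-poor fragments 22797 and the endothelial promoter ratio 1.04. The changes of direction there were pituitary RNA (0.927), GABAergic RNA (1.004), Gh (0.987) and Pdgfrb (0.982). With at least 2000 UMIs the globin-rich medians were 3945 UMIs and 21408.5 fragments, and within quintiles of UMIs 4061.5 and 21373.5. The globin-rich fragment median was then above the globin-poor one (21171.5 and 20691), against below it in the main comparison. With the beta genes as the score, the globin-poor medians were 3644 UMIs and 20122.5 fragments. Against 240 genes higher and 139 lower in the main comparison, a minimum of 20 UMIs gave 380 and 221, a minimum of 200 UMIs 32 and 10, a fold of 2 46 and 21, and leaving out spots high for other tissues 146 and 90. Without those spots mural RNA was at 1.08 and mural promoters turned to 0.918. Apart from the minimums and folds, whose construction sets the counts, the cause was not tested. The endothelial RNA ratio stayed above 1 in all 11 alternatives that gave one, from 1.30 to 1.74, and the erythroid ratio lay between 1.06 and 1.20. No paired analysis was possible because each assay had 1 library.

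With 1 embryo and 1 library per assay, the spread between animals is unknown. Depth limits single genes: most list members had under 50 UMIs in both groups together.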
